A study of Xenopus tropicalis with 15 samples.

Results

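Fresh peripheral blood cells of the western clawed frog, Xenopus tropicalis, were profiled before any culture, in 3 of the 15 libraries of a study of erythropoietin (EPO), the hormone of red cell production. The libraries were chosen by their label, as the group sampled ahead of culture, with earlier results of these data known. They are described here by the level, rank and class of their genes, with no contrast to the cultured groups. The frogs are labelled wild type and the treatment as none. Blood was drawn from the heart into the anticoagulant EDTA and the cells were washed 3 times, so each library holds total blood cells with no sort. The labels call the libraries biological replicates without saying which or how many animals each came from, and they give no age or sex. Cells were washed in a buffer with fetal calf serum, and 50 ng of total RNA went into each 3′ RNA-seq library. The other 12 libraries, of cells kept in culture with or without EPO, were not used.

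Frog red cells keep their nucleus and their chromatin in the circulation, unlike those of mammals, and they circulate with nucleated thrombocytes, the frog's counterpart of platelets, and with granulocytes, monocytes and lymphocytes. Hemoglobin is a tetramer of alpha-type and beta-type globin chains, each around an iron-bearing heme ring. Heme is built by a chain of enzymes that opens with aminolevulinate synthase in the mitochondrion, and iron that is not yet used is held in ferritin shells. A bulk library reads all of these cells at once, so fewer cells of a type and less RNA per cell cannot be told apart.

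The 3 libraries held 1329340, 2329659 and 1817170 counts in replicates 1, 2 and 3. Of 26531 genes in the table, 17526 had a count in at least 1 library, 9802 had a count in all of them and 9005 had none. Levels are given as CPM, a gene's counts for every 1000000 counts of its library, and are not divided by gene length, because the method tags the 3′ end of a transcript. Within a library a single count is worth 0.429 to 0.752 CPM, and a gene with no count in any library could still have a level of up to 0.548 CPM (3 counts over the group). These limits cover counting error only. With 1 group there is no test between groups, and errors are SDs over the 3 libraries.

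The transcriptome of fresh blood was concentrated in few genes. It took 7 ± 1 genes to reach 50% of the counts (SD, n = 3), 81 ± 2.65 genes to reach 75% and 889 ± 121 genes to reach 90%. The 10 highest genes held 53.4 ± 1.50% of the counts and the 100 highest held 78.5 ± 0.618%. With the globin genes set aside, the same shares of the remaining counts took 65 genes for 50% and 2418 genes for 90%. Genes at a mean of 10 CPM or more numbered 4148, which is 15.6% of the table. Above 1000 CPM there were 108.

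**Figure D1:**
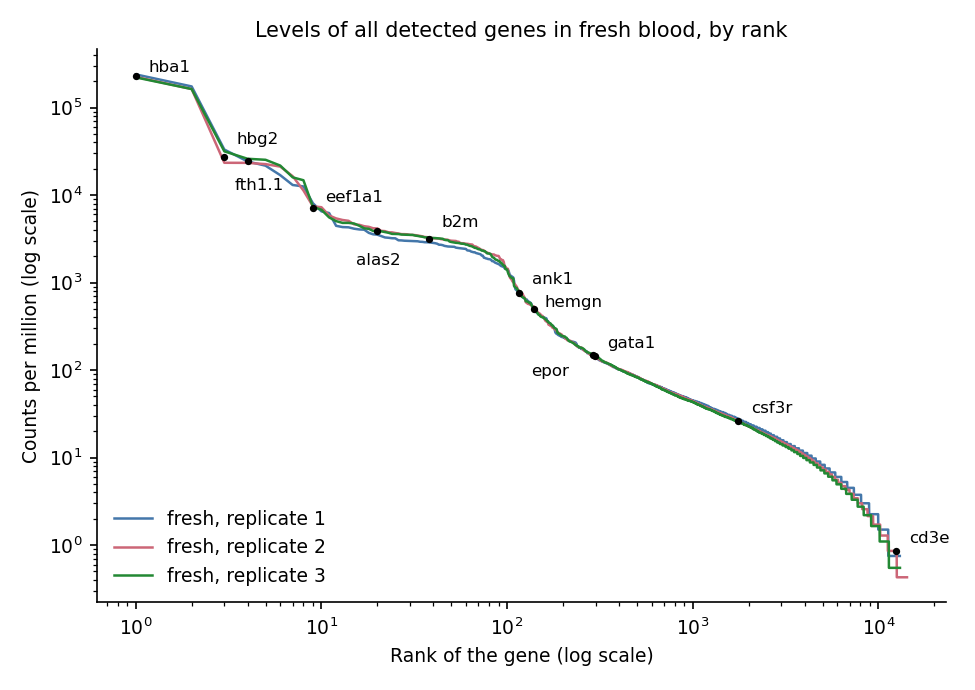
Level in CPM of every detected gene (vertical axis, log scale) against its rank (horizontal axis, log scale), 1 line for each of the 3 fresh libraries; labelled points are means of single genes at the rank of that mean. The lines lie close together, with a drop after the globins hba1 and hbg1 and a shoulder of ribosomal protein genes above 1000 CPM.

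Among the 30 highest genes, 6 were globins and 16 encoded ribosomal proteins. The remaining named genes were eef1a1 (elongation factor 1 alpha, which brings aminoacyl-tRNA to the ribosome), fth1.1 (ferritin heavy chain), alas2 (the red cell form of aminolevulinate synthase) and pole2 (a subunit of a DNA polymerase). The other 4 carry names that give no product. LOC116407694, annotated in RefSeq as protein-coding, stood at 12553, 22578 and 21728 CPM and was lowest in replicate 1. LOC116407343, annotated as a pseudogene, had a steady 16887, 16438 and 15941 CPM. MGC75752 averaged 13032 ± 1742 CPM and is the gene next to fth1.1 on chromosome 7. The long non-coding RNA gene LOC100493542 averaged 6768 ± 515 CPM.

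Globin genes came first by a wide margin. The 12 globin genes of the table held 48.3%, 44.4% and 44.4% of the counts, with the highest share in replicate 1. The alpha-type gene hba1 ranked first in the mean, with 239250, 224186 and 221060 CPM. Next came the beta-type gene hbg1 with 174289, 162664 and 162739 CPM. In both genes the libraries lay within 1.1-fold of each other, with replicate 1 on top. Frog globin symbols are borrowed from mammals and do not mean that a chain is the counterpart of the mammalian gene of that name.

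The other globins lay far below this leading pair. The beta-type hbg2 stood at 33115, 23381 and 25988 CPM, and the alpha-type hba3 at 24217, 23337 and 25300 CPM. Each library had hbg2 above hba3, by a narrow margin in replicate 2, and the ranges of these genes over the libraries overlap. The alpha-type hba4 followed with 8052, 5848 and 5037 CPM, and the beta-type hbd with 3698, 3899 and 3586 CPM. Every library had hba4 above hbd. The alpha-type hba2 was the least even globin of the abundant set, at 693, 217 and 436 CPM, a 3.20-fold span from replicate 2 to replicate 1.

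The minor globins were lower still. The gene hba-l5 averaged 53.3 ± 9.62 CPM, hba-l3 averaged 5.55 CPM, hbz 1.90 CPM and hba-l4 0.904 CPM, and hbe1 had no count in any library. In the RefSeq gene order of the assembly UCB_Xtro_10.0, hbg1, hba1, hba3, hba4, hba2, hba-l5, hba-l4 and hba-l3 lie side by side on chromosome 9, and the mean level is lower at each gene in turn from hba1 to hba-l4. Past nprl3, a housekeeping neighbour of alpha globin genes across vertebrates, lies hbz. The summed counts of alpha-type genes exceeded those of beta-type genes by 1.31 ± 0.0228 times (1.29, 1.34 and 1.31 in replicates 1 to 3). Reads of near-identical globin copies may have been split between genes in counting, so single copies are less certain than the sums. Chromosome 9 carried 49.8% of all counts, and 7.55% of those left when globins were set aside.

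Genes for heme supply were led by 1 enzyme. In the order of the pathway, alas2 averaged 3849 ± 277 CPM, alad 123 ± 24.2, hmbs 32.1 ± 8.76, uros 29.7 ± 10.0, urod 21.2 ± 8.33, cpox 68.8 ± 19.0, ppox 11.9 ± 2.67 and fech, the ferrochelatase that inserts iron, 10.4 ± 6.35 CPM. The first enzyme thus stood 31.2-fold above the second, alad, and 368-fold above the last. In single libraries alas2 was at 3561, 3874 and 4113 CPM, lowest in replicate 1, whereas alad was at 144, 128 and 96.9 CPM, highest in replicate 1. For fech the values were 15.8, 3.43 and 12.1 CPM, with replicate 2 apart from the others. All 8 enzymes of the pathway were detected in every library, against 9802 of 26531 genes of the table. The housekeeping form alas1 averaged 11.1 CPM.

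Transport and disposal genes of heme were led by 2 genes above alad. Biliverdin reductase B (blvrb) averaged 249 ± 17 CPM. The mitochondrial membrane gene tmem14c, which in mouse moves a heme precursor, averaged 157 ± 34.5 CPM, the transporter abcb6 99.1 ± 10.2 CPM and the glycine carrier slc25a38 62.7 ± 16.5 CPM. An iron importer of the mitochondrion, slc25a37 (mitoferrin 1), averaged 6.92 CPM. Its relative slc25a28 was higher and uneven, at 11.3, 49.8 and 44.0 CPM. The list of 26 heme genes held 0.498 ± 0.0263% of the counts, of which alas2 made up 77.3%. Of the 26, 3 had no count, against 9005 of 26531 genes of the table.

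**Figure D2:**
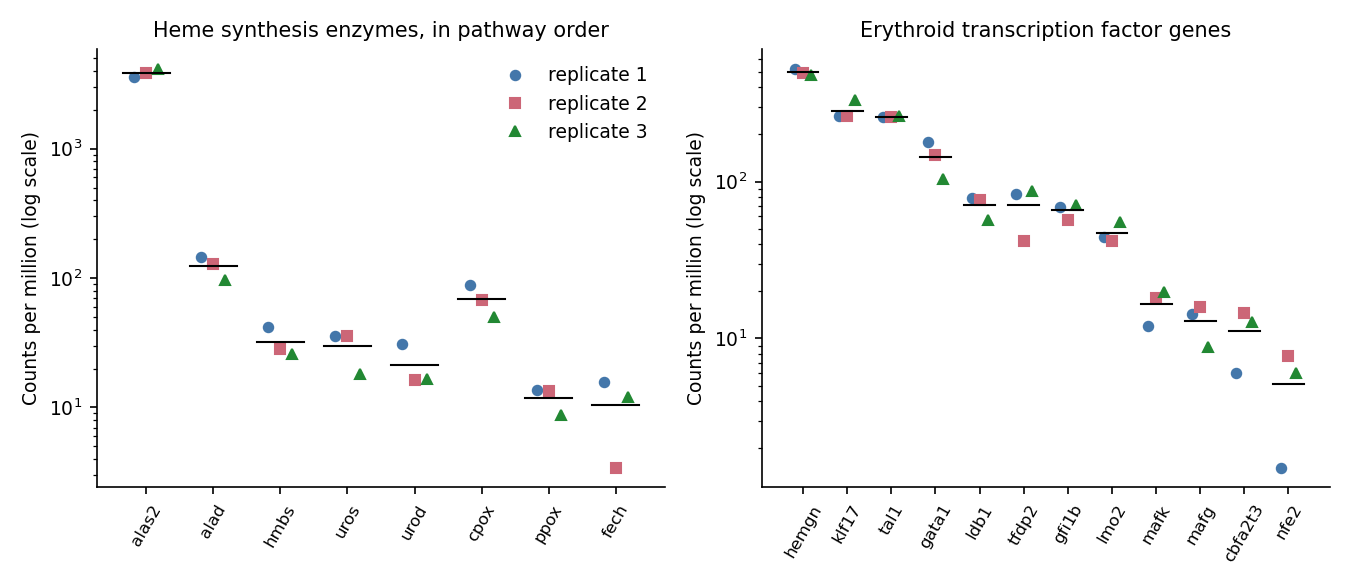
Left, levels in CPM of the 8 heme synthesis enzymes in pathway order; right, the same for 12 erythroid transcription factor genes. Both vertical axes are log scales; each symbol is 1 of the 3 fresh libraries and the bar is their mean. The gene alas2 lies above all later enzymes in each library, and the tal1 symbols coincide.

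Iron storage ranked far above iron uptake. Ferritin heavy chain, fth1.1, stood at 21663, 21140 and 31583 CPM, highest in replicate 3, and made up 91.3% of the 19-gene iron list. A further ferritin gene, ftmt, averaged 1640 ± 198 CPM. Glutaredoxin 5 (glrx5), which serves iron-sulfur clusters, averaged 381 ± 78.4 CPM, and ncoa4, the receptor that takes ferritin to autophagy in mammals, 173 ± 50.3 CPM. The transferrin receptor tfrc, the route of iron entry in maturing mammalian red cells, was low, at 10.5, 2.58 and 2.20 CPM. In replicate 1 tfrc lay above the other libraries. The iron regulatory protein gene aco1 averaged 77.4 ± 4.58 CPM and its partner ireb2 averaged 11.1 CPM. Ferritin copies resemble each other, and counts may have been split between them.

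Membrane and skeleton genes of the red cell were well represented. Ankyrin 1 (ank1), which ties the spectrin mesh to the membrane, stood at 671, 719 and 917 CPM. Dematin (dmtn), which bundles actin in that mesh, stood at 638, 585 and 603 CPM. The anion exchanger slc4a1 (band 3) read 284, 443 and 303 CPM, highest in replicate 2. Protein 4.1 (epb41) averaged 307 ± 43.8 CPM, beta spectrin (sptb) 111 ± 13.9 CPM, protein 4.2 (epb42) 73.8 ± 9.85 CPM and adducin 1 (add1) 54.7 ± 4.68 CPM. Vimentin (vim), an intermediate filament that nucleated red cells are known to hold, averaged 438 ± 42.5 CPM.

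Channels and transporters of the same list included aqp3, an aquaglyceroporin, at 329, 281 and 307 CPM. The ammonium channel family gave rhag at 131 ± 9.24 CPM and rhd at 83.6 ± 14.4 CPM. The stretch channel piezo1 averaged 6.96 CPM. Of the 31 membrane genes, 29 were detected and 18 reached 10 CPM. In the table as a whole, 17526 of 26531 genes were detected and 15.6% reached 10 CPM. The summed level of the membrane genes spanned 1.09-fold between libraries.

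Enzymes of carbon dioxide and oxygen transport were led by carbonic anhydrase 2 (ca2), which read 643, 912 and 781 CPM and was lowest in replicate 1. A second carbonic anhydrase, ca13, averaged 87.2 ± 18.6 CPM. Bisphosphoglycerate mutase (bpgm), whose product lowers the oxygen affinity of hemoglobin in mammals, averaged 151 ± 31.7 CPM. Genes of antioxidant defence were led by gpx1, a glutathione peroxidase, at 1695, 1438 and 1557 CPM, followed by the peroxidase prdx2 at 389 ± 31.3 CPM and the superoxide dismutase sod1 at 353 ± 26.3 CPM. Glutaredoxin (glrx) was uneven, at 143, 294 and 342 CPM, and lowest in replicate 1. Glycolysis was modest in level: its 26 genes summed to 707 ± 96.2 CPM, of which gapdh gave 262 ± 74.4 CPM and the red cell pyruvate kinase pklr 45.0 ± 8.37 CPM.

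Regulators of the red cell program were detected over a wide range of levels. Hemogen (hemgn) was highest of the 34 transcription factor genes, at 520, 494 and 475 CPM. It was followed by klf17, listed in RefSeq with the synonym neptune, a Krüppel-like factor of the blood islands of Xenopus embryos, at 261, 260 and 329 CPM. The basic helix-loop-helix factor tal1 read 257, 258 and 260 CPM, an SD of 1.36, and was among the most even genes between libraries at its level. The zinc finger factor gata1 read 179, 147 and 104 CPM, highest in replicate 1 and lowest in replicate 3.

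Other genes of the transcription factor list were lower. The adaptor ldb1 averaged 70.7 ± 11.8 CPM, tfdp2, a cell cycle regulator of red cell precursors in mouse, 70.6 ± 25.2 CPM, the repressor gfi1b 65.6 ± 7.38 CPM and lmo2, which bridges tal1 and gata1, 47.0 ± 7.07 CPM. Further down were mafk at 16.6 CPM, mafg at 13 CPM and nfe2 at 5.09 CPM. The progenitor factor gata2 had no count in replicate 1 and averaged 2.22 CPM, and kit, the stem cell factor receptor, averaged 3.45 CPM. Of the 34 genes, 31 were detected, 11 reached 10 CPM and 3 had no count. In the table as a whole, 17526 of 26531 genes were detected and 15.6% reached 10 CPM. The names klf1, ahsp and stat5a did not match a gene of the table and were not analysed here.

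The receptor for EPO itself, epor, was expressed in every library before culture, at 136, 124 and 182 CPM with its mean level at rank 291. The kinase that it signals through, jak2, averaged 67.6 ± 11 CPM. The inhibitory adaptor sh2b3 (LNK) was the highest of the negative regulators, at 554, 269 and 314 CPM. Replicate 1 lay well above the other libraries for sh2b3. The STAT feedback inhibitors cish and socs2 were uneven and highest in replicate 3, cish at 12.8, 18.5 and 47.9 CPM and socs2 at 3.76, 2.15 and 17.1 CPM. By contrast socs3 was highest in replicate 1, at 20.3, 3.00 and 3.30 CPM. The survival gene bcl2l1 averaged 87.7 ± 7.5 CPM and the kinase gene pim1 25.1 CPM. The gene stat5b averaged 0.693 CPM.

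Interferon response genes were a list of 24 added after the values were seen. Of these, 22 were detected and 9 reached 10 CPM, against 17526 of 26531 and 15.6% of all genes. In that list ifit5 averaged 88.3 ± 23.4 CPM, irf1 32.5 ± 10.1 CPM, irf9 22.1 CPM and stat2 17.2 CPM, and mx1 averaged 0.645 CPM.

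Machinery of protein synthesis was the next large class. The 77 cytosolic ribosomal protein genes held 18.8%, 22% and 21.4% of the counts and were lowest in replicate 1, where globins were highest. All 77 were detected, against 17526 of 26531 genes of the table, and 73 were among the 100 highest genes. Their median level was 2702 CPM, from 851 CPM for rpl10a to 5139 CPM for rps29, and 73 of them lay within 2-fold of that median. The 46 proteins of the large subunit had a median of 2585 CPM and the 31 of the small subunit a median of 2767 CPM. Between libraries the highest span of any ribosomal protein gene was 1.42-fold. In 68 of the 77, replicate 1 was the lowest library, against 32.8% of all genes at 10 CPM or more.

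Translation factors added 2.21 ± 0.15% of the counts. After eef1a1 (7095 ± 505 CPM), the translocation factor eef2.1 averaged 2515 ± 290 CPM, the poly(A)-binding protein pabpc1 964 ± 138 CPM and eif5a 911 ± 216 CPM. The nascent chain factor naca averaged 1846 ± 185 CPM, the ribosome-bound scaffold rack1 1621 ± 146 CPM and tpt1, a growth-related mRNA regulated with ribosomal protein mRNAs, 2984 ± 204 CPM. RefSeq ribosomal RNA genes took 0.3 ± 0.0178% of the counts.

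Nuclear genes of the respiratory chain held a small share of the counts with an even sum. Together the 78 held 0.651%, 0.678% and 0.669% of the counts. All 78 were detected and 73 reached 10 CPM, against 17526 of 26531 and 15.6% of all genes. Among those 73, sdha spanned most, at 7.52, 29.2 and 14.3 CPM (3.88-fold). Median levels were 52.8 CPM for complex I, 56.0 CPM for complex II, 85.1 CPM for complex III, 76.3 CPM for complex IV and 103 CPM for the ATP synthase. The highest was ndufa4, at 611 ± 95.1 CPM. Mitochondrially encoded genes matched no name of the table and were not analysed here.

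Turnover systems were expressed as well. The 49 proteasome subunit genes summed to 2216 ± 101 CPM, with psmb4 at 137 ± 28.7 CPM. Of the 49, 40 reached 10 CPM, against 15.6% of all genes. In autophagy, gabarap, which joins the forming vesicle membrane, averaged 356 ± 19.0 CPM, the cargo receptor sqstm1 281 ± 47.3 CPM and bnip3l, the receptor for removal of mitochondria in mammalian red cells, 33.5 ± 6.70 CPM. The autophagy kinase gene ulk2 read 32.3, 71.3 and 210 CPM, a 6.5-fold span with replicate 3 highest. Its relative ulk1 read 38.4, 33.5 and 52.3 CPM.

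**Figure D3:**
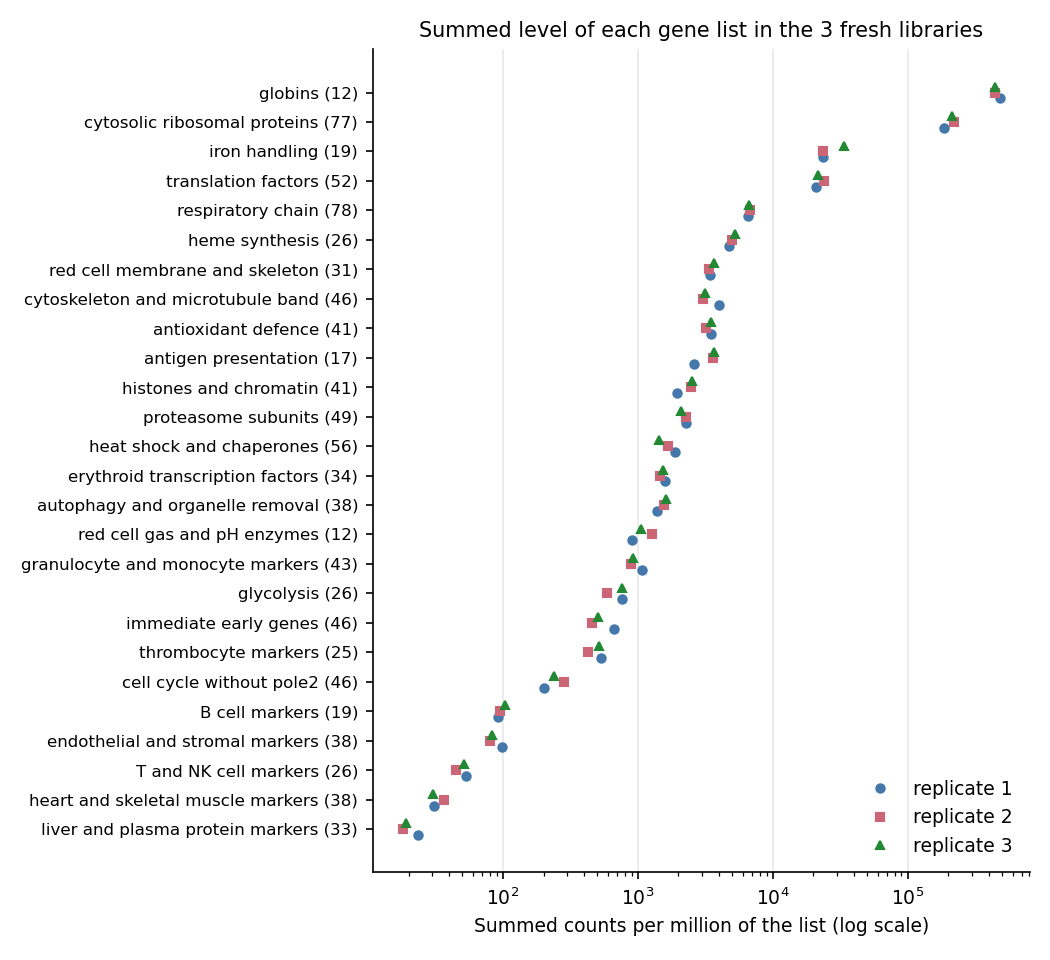
Summed CPM of 26 gene lists (horizontal axis, log scale), with the number of genes in the table in parentheses; each symbol is 1 of the 3 fresh libraries. Globins and ribosomal proteins lead, lymphocyte, endothelial, heart and liver markers lie at the foot, and the symbols of most lists lie close together.

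Chromatin genes included several histones. The linker histone h1-1 read 389, 754 and 861 CPM and was lowest in replicate 1. The replacement core histone h3-3a read 329, 181 and 258 CPM and was highest in replicate 1. Counts of near-identical histone genes may have been split or merged.

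Several highly ranked genes fell outside the classes described above. The RNA-binding protein gene rbm6 averaged 3206 ± 291 CPM, the histone demethylase gene kdm2b 3153 ± 355 CPM and the nuclear import receptor kpnb1 1754 ± 93.2 CPM. In RefSeq kdm2b overlaps orai2, and the strand handling of the counting is not given in the sources used here, so reads of this pair cannot be told apart. A snoRNA gene overlaps rbm6 and had no count. Whether the counts of rbm6, kdm2b and pole2 come from those transcripts was not tested. Next came tsc22d3, a glucocorticoid-induced regulator in mammals, at 1517, 1113 and 1429 CPM, the cytoplasmic actin actg1 at 1203 ± 223 CPM and the complement inhibitor cd59 at 1106 ± 90.5 CPM. Cyclin G1 (ccng1) averaged 683 ± 10.3 CPM, creg1 677 ± 112 CPM, the kinesin gene kif21a 622 ± 187 CPM, the RNA-binding khdrbs3 616 ± 52.8 CPM, gephyrin (gphn) 587 ± 16.2 CPM, the splicing regulator mbnl1 579 ± 39.0 CPM and serine dehydratase (sds) 577 ± 24.4 CPM.

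Antigen presentation rested on class I. Beta-2 microglobulin (b2m), the light chain of class I molecules, read 2434, 3454 and 3507 CPM and was lowest in replicate 1. The class II invariant chain cd74 averaged 41.6 ± 11.9 CPM and mhc2a 7.42 CPM. The peptide transporter gene tap1 averaged 5.74 CPM, and tap2 and psmb8 had no count.

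The label of total blood was checked against markers: red cell genes led, thrombocyte and granulocyte genes were detected, and of the lymphocyte genes ms4a1 and prf1 were detected in every library while most receptor complex genes were at or near 0. The 25 thrombocyte genes summed to 533, 428 and 519 CPM and all of them were detected, against 17526 of 26531 genes of the table. Without tubb1, a beta tubulin of platelets in mammals that alone made up 70.6% of the sum, the thrombocyte genes came to 121, 123 and 190 CPM. The fibrinogen receptor subunits itga2b.1 and itgb3 read 18.1, 14.2 and 31.9 CPM and 15, 17.2 and 29.2 CPM. The coagulation factor f13a1 read 7.52, 6.44 and 22 CPM and the thrombopoietin receptor mpl 6.77, 11.6 and 17.1 CPM. For all of these apart from tubb1, replicate 3 was the highest library.

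The 43 granulocyte and monocyte genes summed to 1068, 892 and 915 CPM. The gelatinase mmp9.1 read 203, 178 and 102 CPM. Myeloperoxidase (mpo) read 53.4, 12.9 and 19.8 CPM, prtn3 38.4, 9.01 and 8.80 CPM, eosinophil peroxidase (epx) 42.1, 24.5 and 13.2 CPM and the granulocyte growth factor receptor csf3r 51.2, 17.2 and 9.91 CPM. These granule and receptor genes were all highest in replicate 1. The transcription factor cebpd went the other way, at 147, 300 and 428 CPM, and made up 30.5% of the list. The lysozyme gene lyz had no count, and the monocyte receptor csf1r averaged 4.69 CPM.

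Lymphocyte lists had lower sums. The 26 T and NK cell genes summed to 53.4, 44.6 and 51.7 CPM, led by perforin (prf1) at 13.5, 12 and 16.5 CPM. The T cell receptor subunits cd3g and cd3e averaged 1.62 and 0.858 CPM, and the T cell kinase zap70 had no count. The 19 B cell genes summed to 91.8, 94.4 and 103 CPM, of which ms4a1 gave 32.3, 51.9 and 68.2 CPM. For the B cell receptor, cd79a averaged 0.653 CPM, and cd79b and pax5 had no count. Of the B cell genes, 13 were detected and 2 reached 10 CPM. Of the T and NK cell genes, 19 were detected and 1 reached 10 CPM. In the table as a whole, 17526 of 26531 genes were detected and 15.6% reached 10 CPM.

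Lists of markers for tissue from the site of collection had low sums. The 38 heart and skeletal muscle genes summed to 30.8, 36.5 and 30.3 CPM, of which titin (ttn) gave 11.3 CPM on average. Of these 38, 17 had no count, the heart genes nppa and tnnt2 among them, against 9005 of 26531 in the table. The 38 endothelial and stromal genes summed to 98.5, 80.7 and 83.1 CPM. Of these 38, 29 were detected, against 17526 of 26531 genes of the table, 15 averaged 1 CPM or more and 1 reached 10 CPM. The vessel genes kdr and pecam1 were at 0, whereas tek was the highest of the list. The 33 liver and plasma protein genes summed to 23.3, 18.0 and 19.3 CPM, and 18 of them had no count, apoa1 and fgb among these. These lists come from general knowledge, and which of their genes frog red cells also express is not known here.

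**Figure D4:**
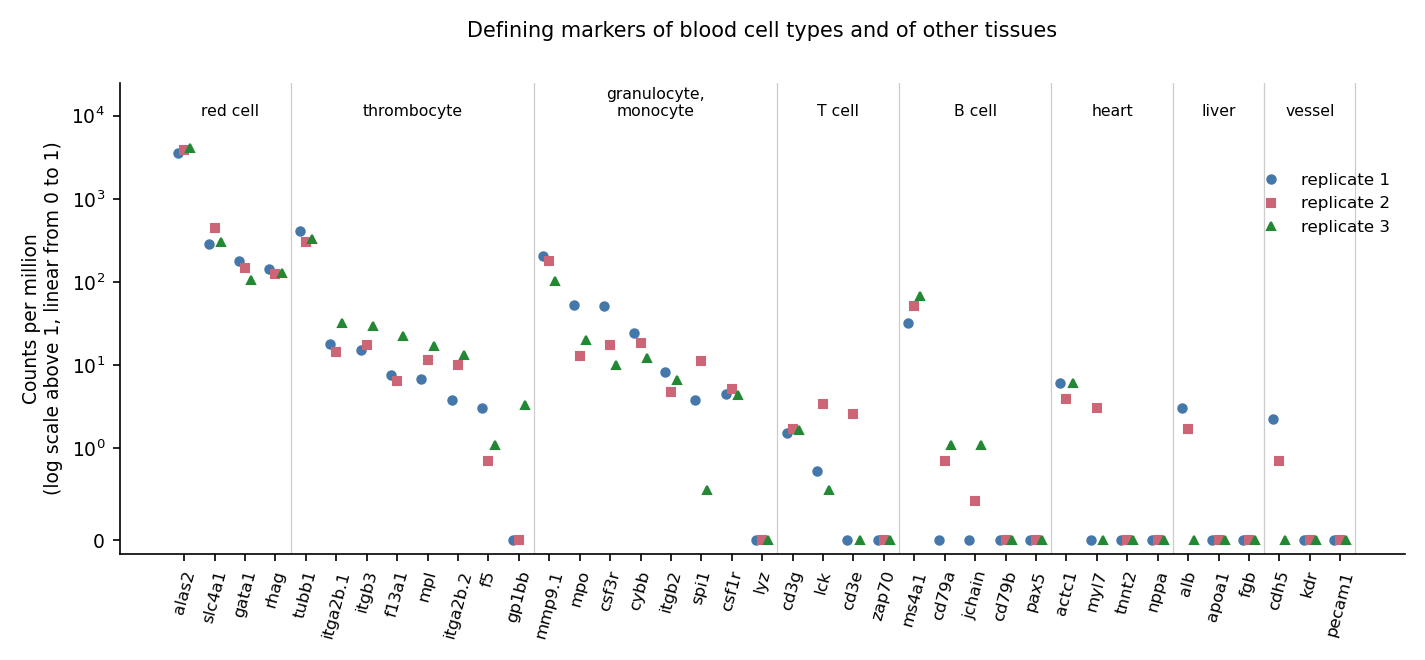
Levels in CPM of defining markers in the 3 fresh libraries (vertical axis, log scale above 1 and linear from 0 to 1), grouped by cell type or tissue; each symbol is 1 library. Red cell genes lie above 100 CPM, thrombocyte and granulocyte markers lie mostly above 1 CPM, and many lymphocyte, heart, liver and vessel markers lie at 0.

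Proliferation genes had a low sum once pole2 was set aside. That gene alone made up 94.5% of the 47-gene cell cycle list, and its neighbours klhdc2 and dnaaf2 averaged 1.37 and 2.19 CPM. The other 46 genes summed to 202, 285 and 239 CPM, led by cdknx, a frog inhibitor of cyclin-dependent kinases, at 67.7 ± 23.0 CPM. Of these 46, 39 were detected and 5 reached 10 CPM, against 17526 of 26531 and 15.6% of all genes. Their median was 1.04 CPM, against 0.693 CPM for all genes. The replication clamp pcna averaged 17.2 CPM.

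Immediate early genes, which cells switch on within minutes of handling or stimulation, summed to 671, 457 and 506 CPM over 46 genes. Replicate 1 was highest for dusp1, at 70.7, 21.0 and 30.3 CPM, and for ier2, at 60.2, 14.2 and 18.2 CPM. The stress gene gadd45g was highest in replicate 2, at 42.1, 123 and 70.4 CPM. The mRNA decay factor zfp36 averaged 73.9 ± 21.4 CPM and egr3 65.8 ± 16.6 CPM.

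The libraries shared most of their ranking and differed in single genes. Between pairs of libraries, 97 to 98 of the 100 highest genes were shared, and Spearman's rho across the 4148 genes at 10 CPM or more was 0.755 to 0.820, a description over genes that are not independent. Counts of a pair differed beyond counting error, at a chi-square of 4.73 to 6.96 per degree of freedom, and no pair of columns was identical. The chi-square weighs counting error only, so it cannot tell whether the libraries come from different animals. The common coefficient of variation beyond counting error was 0.236 in edgeR over 4568 genes. Replicates 2 and 3 were the closest pair by chi-square and by rho.

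Of the 4148 genes, 1172 (28.3%) spanned at least 2-fold between the highest and the lowest library, and at 50 CPM or more 57 of 855 (6.67%) did. By level the share was 43.6% from 10 to 20 CPM, 8.62% from 50 to 100 CPM and 0 of the 108 genes above 1000 CPM. Against the 28.3% of all genes, the 2-fold span was met by 8 of 14 granulocyte and monocyte genes at 10 CPM or more. So it was by 5 of 9 thrombocyte genes and 9 of 18 cytokine pathway genes. Autophagy genes (9 of 19), immediate early genes (5 of 12) and glycolysis genes (5 of 14) also lay above that share. The span was met by 3 of 73 respiratory chain genes, by none of 77 ribosomal protein genes and by none of 8 iron genes. All ribosomal protein genes lay at 851 CPM or more, where the span was rare among all genes (6.21% from 100 to 1000 CPM). The lists differ in level, and level moves with the span, whose part in these counts was not tested.

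**Figure D5:**
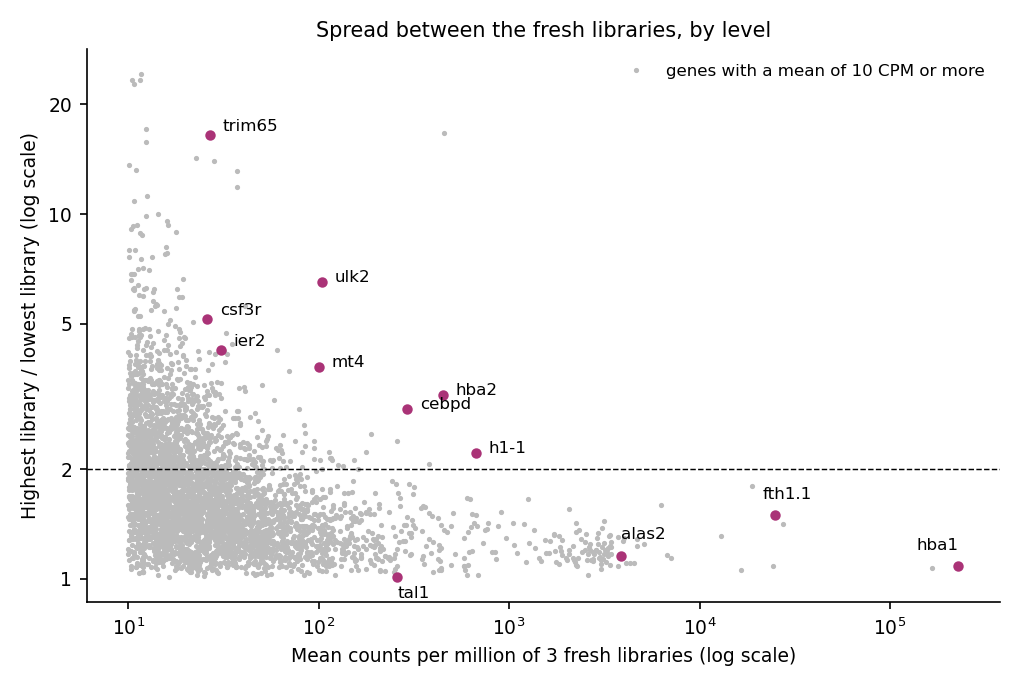
Ratio of the highest to the lowest of the 3 fresh libraries (vertical axis, log scale) against the mean CPM (horizontal axis, log scale), 1 point for each gene with a mean of 10 CPM or more and a count in every library. The dashed line marks 2-fold; ulk2 stands at 6.5-fold, and tal1 lies at the lower edge.

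After these values were seen, genes at 10 CPM or more were also sorted by how far 1 library stood above both others. By at least 5-fold, 9 genes did so, and in all 9 the high library was replicate 1. Among them were the ubiquitin ligase trim65, at 70.7, 4.29 and 6.05 CPM, c1orf198, at 72.2, 5.15 and 7.15 CPM, the G protein regulator rgs2, at 30.1, 1.29 and 3.30 CPM, tubb, at 30.8, 3.86 and 2.75 CPM, and ppp4r2, at 23.3, 4.29 and 4.4 CPM. The non-coding gene LOC116409714 read 54.9, 9.01 and 3.85 CPM. The genes named here rest on 49 to 121 counts over the 3 libraries. Each was below 10 CPM in replicates 2 and 3, so it passed the limit on the mean only through replicate 1. That library also had the fewest counts, 1329340, and a single count weighs most there. The pattern is therefore no measure of how far replicate 1 stood apart.

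Other uneven genes at 50 CPM or more were the lysozyme-like lyg2, at 88.8, 72.1 and 20.9 CPM and lowest in replicate 3, the metallothionein mt4, at 39.1, 149 and 112 CPM and lowest in replicate 1, the copper chaperone cox17, at 30.8, 95.3 and 49.5 CPM, and the lysosomal membrane gene lamp1, at 27.8, 71.3 and 51.7 CPM. At the even end, eif4h read 52.7, 54.1 and 53.4 CPM, ywhae 120, 122 and 122 CPM, anp32c 606, 598 and 592 CPM and rps4x 2562, 2597 and 2627 CPM. Among the 57 genes that spanned 2-fold at 50 CPM or more, replicate 1 was the highest library in 15 and the lowest in 33. Among the 1172 at 10 CPM or more the balance was the other way, with replicate 1 highest in 521 and lowest in 385.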

How the data were processed

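The authors deposited whole-number read counts per gene, 1 column for each sample, and the 3 columns of fresh cells were analysed here (0 columns of the table could not be tied to a sample). The labels' protocols give the library method as Lasy-Seq v1.1, which tags 3′ ends. Tools listed in the submitters' processing notes are R 4.3.2, Salmon, fastp 0.21.0 and BWA 0.7.17-r1188. Not given in the sources used here are what each tool did, the genome build, the strand handling and any rounding of estimates.

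CPM are counts over a library's total, so they are shares, and a high globin share lowers every other value. Symbols come from the table, and 26530 of 26531 matched RefSeq (UCB_Xtro_10.0), used for gene types, synonyms and gene order. Scaling factors and dispersion came from R 4.3.3 with edgeR 4.0.16 and, as an alternative, DESeq2 1.42.0, tested on simulated data. No test between groups was made. Genes named were the 30 highest, the 40 highest outside the main classes, the 8 highest of each list, fixed markers, and the 12 largest and 6 smallest ratios between libraries; neighbours, minor members and genes high in 1 library were added. The group and lists were chosen with earlier results of these data known, and the interferon list and a list of surface receptors were added later. Some items that these rules would name are not reported here.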

Additional observations from a re-analysis of the deposited data

How the results depend on the processing

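Leaving globin genes out of the total moved the share of ribosomal proteins from 20.7% to 38.1%, of translation factors to 4.07%, of iron genes to 4.99%, of the respiratory chain to 1.23%, of heme genes to 0.917% and of the cytokine pathway to 0.287%, and 65 and 2418 genes then held 50% and 90% of the counts. The coefficient of variation was 0.458 with no filter on low counts. The number of genes spanning 2-fold was 57 at 50 CPM or more, 2511 without globins in the total (the level limit then takes in lower genes), and 441 to 737 with 1 library left out (2 libraries span less than 3). A criterion chosen after seeing the data, at least 50 counts and a chi-square above 10 per degree of freedom, gave 436. Without replicate 1 the cytokine pathway share was 0.107% against 0.153%. TMM and DESeq2 scaling, which cannot change ranks within a library, kept the same 30 genes as the highest. Leaving out replicate 1, 2 or 3 kept 28, 29 and 28 of these 30. Of 63 main values recomputed, 48 stayed within their spread or, for counts of genes, within 1.5 times. Total counts limit precision most below 10 CPM, and to a lesser degree above it. The 2-fold span was met by 43.6% of genes from 10 to 20 CPM and 21.4% from 20 to 50 CPM. From 100 to 1000 CPM it was met by 6.21%. The part of counting error in these shares was not tested. No paired analysis was possible because the results come from 1 group and no test.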

Other observations

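Genes for receptors and channels of the cell surface, a list of 51 added after the values were seen, summed to 1708, 1423 and 1640 CPM. Of the 51, 44 were detected, against 17526 of 26531 genes of the table. The potassium channels kcnk2 and kcnj13 averaged 267 ± 68.7 and 196 ± 20.5 CPM. The adhesion receptor adgrg1 averaged 167 ± 39.5 CPM, the orphan receptor gpr19 108 ± 18.6 CPM, the nicotinic receptor subunit chrna4 86.9 ± 30.8 CPM, the tachykinin receptor tacr1 84.5 ± 38.9 CPM, the adenosine receptor adora2a 79.2 ± 10.7 CPM and the apelin receptor aplnr 64.2 ± 6.64 CPM. The usual partner subunits of chrna4, chrnb2 and chrnb4, had no count.

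Nuclear receptor and clock genes were led by the glucocorticoid receptor nr3c1, at 117, 140 and 179 CPM, the PAR-bZIP factor tef, at 111, 105 and 143 CPM, and the clock repressor cry2, at 97.0, 91.4 and 135 CPM. Of the 26 genes on that list, 24 were detected and 10 reached 10 CPM, against 17526 of 26531 and 15.6% of all genes. Of those 10, 1 spanned 2-fold, against 28.3% of all genes at 10 CPM or more. Survival genes gave mcl1 at 140 ± 14.9 CPM and birc2 at 77.5 ± 5.24 CPM, and their 30-gene list summed to 645, 616 and 653 CPM.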
